A study of Mus musculus with 6 samples.

Results

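The genes described here encode the extracellular matrix of the liver and the proteins that mark hepatic stellate cells and related mesenchymal cells. The list holds 42 genes, chosen by name: fibrillar and basement membrane collagens, proteoglycans, laminins, elastic fibre proteins, contractile and cytoskeletal proteins, growth factor receptors, and a matrix protease with its inhibitors. Of these, 41 had a probe annotated to that symbol alone, each with 1 probe, out of 19938 genes measured in this way. Fbn1 was not analysed here. A gene was tested where its log2 signal averaged 5 or more across the 6 arrays, which held for 38 of the 41, and Lox, Thy1 and Timp1 were below that minimum. Expression was measured in livers of C57Bl6/J offspring, labelled as newborns of at most 1 day, whose mothers ate 1 of 3 isocaloric diets with 6 g% of oil. The oil was soybean in the Control diet, flaxseed in ALA (alpha-linolenic acid at 31.6%) and coconut in SFA (saturated fatty acids at 48.51%). No genotype or drug separated the groups. Each group had 2 Affymetrix arrays, and each array carried RNA pooled from 3 livers. The mice were 4 to 5 weeks old when the diets were assigned, and fathers shared the diet of their mates during mating. Neither the sex nor the litter of the pooled pups is labelled.

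Hepatic stellate cells lie between hepatocytes and the sinusoidal endothelium, store vitamin A, and can turn into contractile cells that lay down matrix. Fibrillar collagens form the cables of the interstitial matrix, with small proteoglycans bound along them, while basement membranes are sheets of collagen IV and laminin joined by nidogens. Smooth muscle actin, its partner transgelin and desmin mark contractile or stellate cells. Around birth the mouse liver is growing and is losing the blood-forming cells it housed in fetal life.

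Promoter sequences of genes chosen by name are shown first. Several of the largest differences below belong to them, but the choice did not follow size. Sparc, which rose by 2.23 on ALA, is not printed, and its window held none of the patterns described below. Every printed stretch holds a marked pattern. RefSeq entries for the assembly GRCm38.p6 matched 27 of the 41 genes, in 32 windows of 300 bases reaching from 250 before to 50 after a transcription start. Each sequence below runs 5′ to 3′ on the strand of its gene, from 150 bases before the start to 50 after. Capitals mark CCAAT on either strand (ATTGG where it lies on the other strand), TATAAA on either strand, and the CArG box, the site of the serum response factor, searched as CC and GG around 6 bases of which at least 5 are A or T.
Col1a2 (chr6:4505468-4505667, + strand), a fibrillar collagen chain: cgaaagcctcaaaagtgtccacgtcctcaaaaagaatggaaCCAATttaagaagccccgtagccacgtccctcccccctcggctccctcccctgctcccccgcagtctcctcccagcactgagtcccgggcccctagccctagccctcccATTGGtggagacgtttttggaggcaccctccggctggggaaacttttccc
Postn (chr3:54360957-54361156, + strand), the matricellular protein periostin, at 1 of 2 annotated starts: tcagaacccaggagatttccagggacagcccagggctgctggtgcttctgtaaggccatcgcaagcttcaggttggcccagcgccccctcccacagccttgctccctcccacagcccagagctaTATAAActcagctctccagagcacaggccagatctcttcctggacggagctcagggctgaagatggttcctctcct
Nid1 (chr13:13437452-13437651, + strand), the basement membrane linker nidogen: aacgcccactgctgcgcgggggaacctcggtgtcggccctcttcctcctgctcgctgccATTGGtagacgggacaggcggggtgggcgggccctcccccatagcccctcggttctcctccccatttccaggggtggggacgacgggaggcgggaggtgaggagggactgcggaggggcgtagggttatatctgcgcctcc
Col4a2 (chr8:11312655-11312854, + strand), a collagen IV chain: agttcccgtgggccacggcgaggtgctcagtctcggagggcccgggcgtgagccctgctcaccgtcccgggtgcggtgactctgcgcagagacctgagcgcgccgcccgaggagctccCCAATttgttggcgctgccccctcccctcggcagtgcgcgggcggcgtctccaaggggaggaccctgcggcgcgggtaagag
Vim (chr2:13574161-13574360, + strand), the intermediate filament protein vimentin: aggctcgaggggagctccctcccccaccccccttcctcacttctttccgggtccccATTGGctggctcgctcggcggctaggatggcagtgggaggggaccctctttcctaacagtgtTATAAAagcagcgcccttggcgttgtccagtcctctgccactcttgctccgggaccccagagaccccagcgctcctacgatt
Acta2 (chr19:34255324-34255523, - strand), smooth muscle actin: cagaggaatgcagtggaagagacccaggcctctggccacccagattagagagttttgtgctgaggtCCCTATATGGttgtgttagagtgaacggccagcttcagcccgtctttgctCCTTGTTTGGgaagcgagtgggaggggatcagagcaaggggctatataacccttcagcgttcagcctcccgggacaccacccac

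The last 78 bases of the Col4a2 sequence also lie in the window of Col4a1, which is read from the other strand, and the annotated starts of these neighbouring genes are 21 bases apart. The overlap is 73.1% G and C with 9 CpG. CCAAT lay in 34.4% of the 32 windows and in 37.4% of the 32851 windows of all genes, TATAAA in 12.5% against 13.6%, and the CArG box in 18.8% against 9.98%. The CArG share rests on 6 windows, those of Acta2, Col6a3, Col1a2, Fbln2, Timp3 and Lamb1, and was not tested. The windows of Vim and Des held none. In Acta2 both CArG boxes are inside the printed stretch, with first bases at positions -84 and -34 from the start. A match describes the letters of a window and shows neither binding nor its absence.

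Array medians over 35556 probes were 4.76 and 4.82 for SFA and 4.90 to 4.96 for the other 4. Duplicates correlated with r = 0.977 (Control), 0.978 (ALA) and 0.986 (SFA) across 10977 tested genes, which are not independent replicates. The pools differed in sex-linked signal. Eif2s3y, a Y-linked gene, was at 7.74 and 7.80 on ALA, at 4.11 and 3.79 on SFA, and at 3.63 and 7.95 on Control replicates 1 and 2. Genes of liver maturation also differed in part. Of 12 postnatal liver genes, 4 were lower on ALA and 5 on SFA (limma, adjusted p under 0.05), where 2.82% and 7.15% of all tested genes were. On ALA 4 of the 12 had a positive difference, and on SFA 1. Their mean log2 signal was 9.76 to 10.93 on Control, 8.26 to 8.81 on ALA and 8.11 to 8.16 on SFA. The hepcidin gene Hamp had the largest difference of the list. It was at 11.8 and 11.6 on Control, 5.73 and 4.52 on ALA, and 3.83 and 4.85 on SFA. The maturation genes differed along with Control against both other diets, so diet and maturity cannot be told apart there. Sex-linked signal separated ALA from SFA and split the Control arrays, so diet and sex makeup cannot be told apart between ALA and SFA. The labels do not say that duplicate pools held different animals, so the p-values measure only the spread between these arrays, which may be technical.

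Matrix and stellate cell genes were higher in livers of both ALA and SFA offspring than in Control livers. On ALA 22 of the 38 tested genes rose and 0 fell (limma, adjusted p under 0.05 over 10977 genes), where 5.11% of all tested genes rose and 2.82% fell (7.93% in all). On SFA 23 of the 38 rose and 0 fell, where 6.62% of all tested genes rose and 7.15% fell (13.8% in all). At an unadjusted p below 0.05, 31 of the 38 differed on ALA and 30 on SFA, where 24.7% and 31.9% of all tested genes did. The median log2 difference over the 41 measured genes was 0.83 on ALA and 0.78 on SFA, against -0.01 and -0.05 over all tested genes. Both comparisons use the same 2 Control arrays. Tagln and Des passed the signal minimum although their Control mean was below it, so a difference was built into their passing. Without this pair, 20 of 36 rose on ALA and 21 of 36 on SFA. In bulk RNA, more cells of a type and more RNA per cell cannot be told apart.

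**Figure D1:**
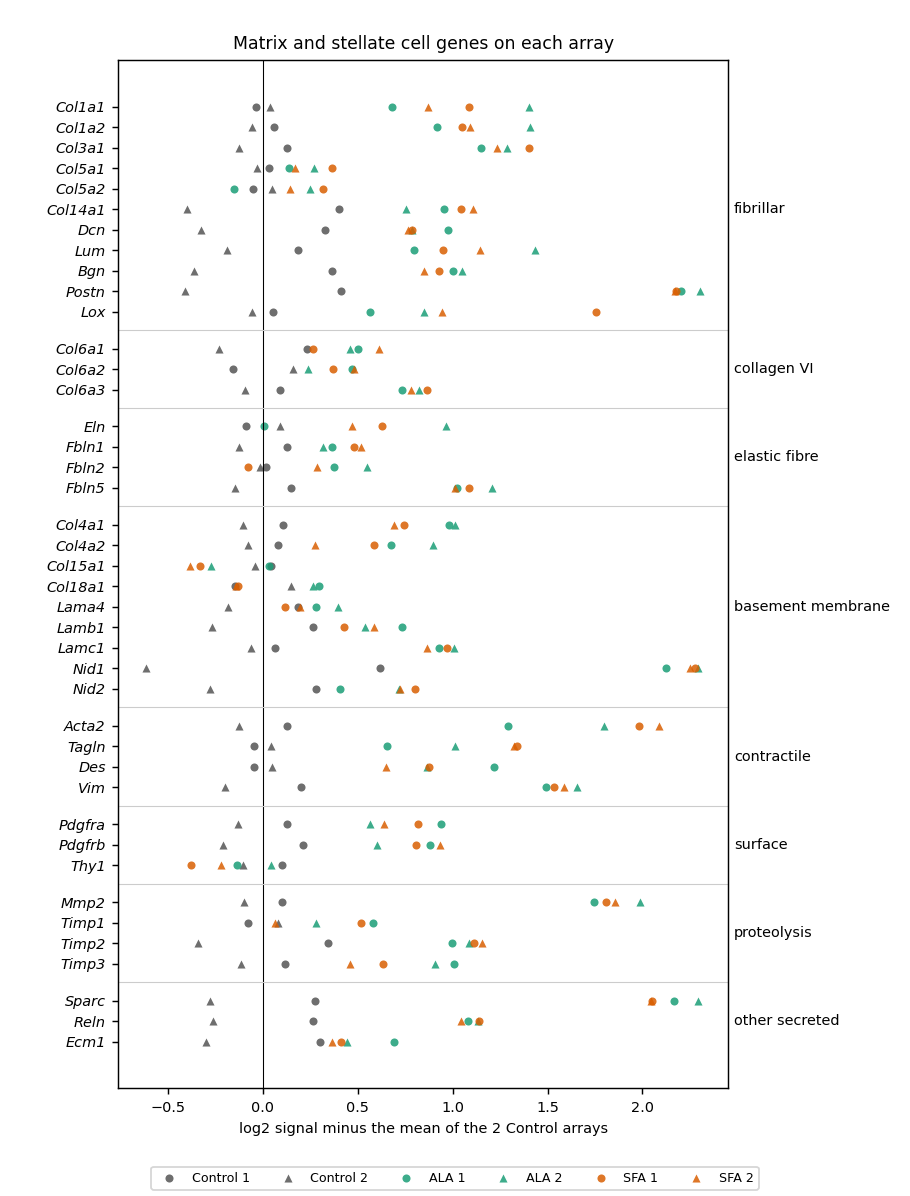
Log2 signal of each of the 41 measured genes on each array, as the difference from the mean of the 2 Control arrays (x axis), with genes grouped by role (y axis). Circles are replicate 1 and triangles replicate 2. The ALA and SFA points of Postn, Nid1 and Sparc lie about 2 units to the right of Control, while those of Thy1 and Col15a1 lie around or left of 0.

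Both ALA arrays lay above both Control arrays for 35 of the 38 tested genes, where this held for 27.0% of all tested genes, and both SFA arrays did for 34 of 38, where it held for 28.6%. Control replicate 1 was above Control replicate 2 for 33 of the 41 genes, by a median of 0.25, while this order held for 52.2% of all tested genes. The size of the differences therefore depends on which Control array is used. Fits that leave out 1 array also called fewer of all tested genes on either diet. Lower counts in those fits are thus not particular to the matrix and stellate cell genes. Without Control replicate 2, 9 genes rose on ALA and 10 on SFA, and without Control replicate 1, 19 and 20 did. Leaving out ALA replicate 1 or 2 gave 14 and 12 genes on ALA, and leaving out SFA replicate 1 or 2 gave 7 and 9 on SFA. Col3a1, Postn, Fbln5, Col4a1, Acta2, Vim, Mmp2 and Sparc rose on ALA whichever array was left out, while Pdgfra on ALA and Timp3 on SFA lost their call whichever array was left out. On SFA, Col3a1, Postn, Acta2, Vim, Mmp2 and Sparc rose whichever array was left out. Tagln did too, but it entered each of these fits through its diet arrays.

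Among the fibrillar collagens, Col3a1, the chain of the thin reticular fibres, had a log2 signal of 5.79 and 5.53 on Control, 6.81 and 6.94 on ALA, and 7.06 and 6.89 on SFA. It rose by 1.22 on ALA (SE 0.14, adjusted p = 0.00671) and by 1.32 on SFA (SE 0.14, adjusted p = 0.00429), with n = 2 arrays per group here and throughout. The Control arrays were the lowest of the 6 and the ALA and SFA arrays overlapped. Col1a2, whose promoter is printed above, was at 5.83 and 5.71 on Control, 6.69 and 7.18 on ALA, and 6.81 and 6.86 on SFA. Its partner chain in type I collagen, Col1a1, was at 6.40 and 6.47, 7.12 and 7.84, and 7.52 and 7.31. Both genes rose on both diets: Col1a2 by 1.17 and 1.07 and Col1a1 by 1.04 and 0.98, which is 2.06-fold and 1.97-fold for Col1a1. The calls of Col1a1 were near the threshold (adjusted p = 0.042 on ALA and 0.037 on SFA), and with 1 array left out it was called in 1 of 6 fits on ALA and 2 of 6 on SFA. The chains of type V collagen, which nucleates fibrils, differed little. Col5a1 was at 5.89 and 5.83 on Control, 6.00 and 6.13 on ALA, and 6.23 and 6.03 on SFA, and Col5a2 spanned 4.90 to 5.37 over the 6 arrays. Neither passed on either diet (adjusted p from 0.216 to 0.888). Col3a1 and Col5a2 are adjacent on chromosome 1, and the log2 differences of this pair on ALA were 1.22 and 0.05.

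Of the proteins that sit on or between the fibrils, Postn had the largest difference. Postn was at 6.96 and 6.13 on Control, 8.75 and 8.85 on ALA, and 8.72 and 8.72 on SFA. It rose by 2.25 on ALA (SE 0.25, adjusted p = 0.00547) and 2.17 on SFA (SE 0.25, adjusted p = 0.00498), which is 4.77-fold and 4.51-fold. All 4 diet arrays of Postn lay within a narrow band well above both Control arrays. Lum, the proteoglycan lumican, was at 5.46 and 5.09 on Control, 6.07 and 6.71 on ALA, and 6.22 and 6.42 on SFA, and rose by 1.11 and 1.05. Bgn, the proteoglycan biglycan, was at 9.36 and 8.63, 9.99 and 10.04, and 9.92 and 9.84, and rose by 1.03 and 0.89. Dcn, the proteoglycan decorin, which binds collagen I and neighbours Lum on chromosome 10, was at 10.43 and 9.78, 11.08 and 10.89, and 10.89 and 10.87. Its differences of 0.88 and 0.78 just missed the threshold (adjusted p = 0.0525 and 0.0557), although its arrays did not overlap between Control and either diet. Col14a1, a fibril-associated collagen, was at 8.18 and 7.38 on Control, 8.74 and 8.53 on ALA, and 8.83 and 8.89 on SFA. It rose by 1.08 on SFA (adjusted p = 0.0349), and its ALA difference was 0.85 (adjusted p = 0.0829). Lox, which crosslinks collagen and elastin, was below the signal minimum, at 4.05 and 3.94 on Control, 4.56 and 4.85 on ALA, and 5.75 and 4.94 on SFA. With no signal minimum, so that Lox entered the test, its SFA difference of 1.35 had an adjusted p of 0.023 and its ALA difference of 0.71 one of 0.211. The same fit kept 19 of the 22 matrix and stellate cell genes called on ALA and 20 of the 23 called on SFA. In this class of 11 genes, 10 were tested, 6 rose on ALA and 7 on SFA, and 0 fell.

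The beaded filaments of collagen VI and the elastic fibres moved less. Col6a3 was at 5.44 and 5.26 on Control, 6.08 and 6.17 on ALA, and 6.22 and 6.13 on SFA, and rose by 0.78 and 0.82 (adjusted p = 0.0178 and 0.0113). Its partner chains Col6a1 and Col6a2, adjacent on chromosome 10, had differences between 0.35 and 0.48 and did not pass. Fbln5, a fibulin needed for elastic fibre assembly, was at 5.75 and 5.46, 6.63 and 6.82, and 6.69 and 6.62, and rose by 1.12 and 1.05 (adjusted p = 0.00867 and 0.00828). It was the only gene of the 4 measured in the elastic fibre class that passed on either diet. Eln, elastin itself, was at 6.09 and 6.27 on Control, 6.19 and 7.15 on ALA, and 6.81 and 6.65 on SFA. The ALA arrays of Eln were 0.96 apart, and its differences of 0.48 and 0.55 did not pass. The fibulin genes Fbln1 and Fbln2 had log2 differences of 0.34 and 0.46 on ALA and of 0.50 and 0.10 on SFA.

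Basement membrane genes were split. Nid1 was at 6.86 and 5.63 on Control, 8.36 and 8.54 on ALA, and 8.52 and 8.49 on SFA. It rose by 2.21 on ALA (SE 0.35, adjusted p = 0.0152) and 2.26 on SFA (SE 0.35, adjusted p = 0.011), with a gap of 1.23 between its Control arrays that was the widest of any of the 41 genes in any group. Nid2, the second nidogen, had differences of 0.56 and 0.76 and did not pass (adjusted p = 0.151 and 0.0533). Lamc1, the laminin gamma 1 chain, was at 6.90 and 6.77, 7.76 and 7.84, and 7.81 and 7.70, and rose by 0.97 and 0.92 (adjusted p = 0.00795 and 0.00749). The beta chain gene Lamb1 had differences of 0.64 and 0.51 and the endothelial alpha chain gene Lama4 of 0.34 and 0.16, and neither passed.

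The paired collagen IV genes, whose promoter windows overlap, both had higher signal than Control. Col4a1 was at 5.97 and 5.76 on Control, 6.85 and 6.88 on ALA, and 6.61 and 6.56 on SFA. Col4a2 was at 5.89 and 5.73, 6.48 and 6.71, and 6.40 and 6.08. Col4a1 rose by 1.00 and 0.72 (adjusted p = 0.00809 and 0.0171), whereas Col4a2 rose by 0.79 on ALA (adjusted p = 0.0321) and had a difference of 0.43 on SFA (adjusted p = 0.117). For both genes the order of the groups was Control, SFA, ALA, with no overlap between the arrays. Collagens XV and XVIII, which belong to basement membrane zones, did not follow. Col15a1 was at 5.66 and 5.58 on Control, 5.66 and 5.35 on ALA, and 5.29 and 5.24 on SFA. Col18a1, the precursor of endostatin, was at 8.92 and 9.22, 9.36 and 9.33, and 8.94 and 8.93. Neither passed in either comparison, and Col15a1 was the only gene besides Thy1 with a negative difference on both diets. In all, 4 of 9 basement membrane genes rose on ALA and 3 of 9 on SFA.

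Of the contractile and cytoskeletal genes, Acta2 and Vim, which were above the signal minimum on Control too, rose on both diets. Tagln and Des were also called, but entered the test through their diet arrays. Acta2 was at 6.04 and 5.79 on Control, 7.20 and 7.71 on ALA, and 7.89 and 7.998 on SFA. It rose by 1.54 on ALA (SE 0.19, adjusted p = 0.00737) and by 2.03 on SFA (SE 0.19, adjusted p = 0.00302), or 2.92-fold and 4.09-fold. Tagln, the actin-binding protein transgelin, was at 4.79 and 4.88, 5.49 and 5.85, and 6.18 and 6.16, and rose by 0.83 and 1.33 (adjusted p = 0.0232 and 0.00468). For both genes the groups were ordered Control, ALA, SFA without overlap. Des, the desmin gene, an established marker of rodent stellate cells, was at 4.66 and 4.76, 5.93 and 5.58, and 5.59 and 5.36, and rose by 1.04 and 0.76. Vim was at 8.50 and 8.10, 9.79 and 9.96, and 9.83 and 9.89, and rose by 1.57 and 1.56 (adjusted p = 0.00474 and 0.00379). Its ALA and SFA arrays overlapped and lay above Control by more than 1 unit.

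Of the receptors, Pdgfra, the platelet-derived growth factor receptor of fibroblast-like cells, was at 5.46 and 5.20 on Control, 6.26 and 5.89 on ALA, and 6.15 and 5.97 on SFA. It rose by 0.75 and 0.73 (adjusted p = 0.0458 and 0.0373). Pdgfrb, the receptor of stellate cells and pericytes, was at 6.30 and 5.88, 6.97 and 6.69, and 6.90 and 7.02. It rose by 0.87 on SFA (adjusted p = 0.026) and had a difference of 0.74 on ALA (adjusted p = 0.0524). Thy1, a surface protein of portal fibroblasts, was below the signal minimum in the mean and was at 5.16 and 4.95 on Control, 4.92 and 5.10 on ALA, and 4.68 and 4.83 on SFA. Both SFA arrays of Thy1 lay below the other 4, while Control and ALA overlapped.

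The gelatinase gene Mmp2 had the smallest adjusted p of the 38 genes in both comparisons. Its signal was 5.56 and 5.36 on Control, 7.21 and 7.45 on ALA, and 7.27 and 7.32 on SFA. It rose by 1.87 on ALA (SE 0.14, adjusted p = 0.00246) and by 1.83 on SFA (SE 0.14, adjusted p = 0.00181), or 3.65-fold and 3.56-fold. Its inhibitors differed among themselves. Timp2 was at 6.15 and 5.47, 6.81 and 6.89, and 6.92 and 6.97, and rose by 1.04 and 1.13. Timp3, which stays bound to matrix, was at 6.95 and 6.72, 7.84 and 7.74, and 7.47 and 7.29, and rose by 0.96 and 0.55. Timp1, the inhibitor best known for rising in injured liver, was below the minimum on all 6 arrays. It was at 3.72 and 3.88 on Control, 4.38 and 4.07 on ALA, and 4.31 and 3.86 on SFA. Its differences were 0.43 and 0.29. Both ALA arrays of Timp1 lay above both Control arrays, while SFA and Control overlapped.

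Sparc, a secreted collagen-binding glycoprotein, was at 9.22 and 8.67 on Control, 11.11 and 11.24 on ALA, and 10.99 and 10.99 on SFA. It rose by 2.23 (SE 0.19, adjusted p = 0.00313) and 2.05 (SE 0.19, adjusted p = 0.00302). Reln, the glycoprotein reelin, which stellate cells make in liver, was at 8.02 and 7.50, 8.84 and 8.89, and 8.90 and 8.81, and rose by 1.11 and 1.09. Ecm1, a secreted protein of liver cells, was at 9.88 and 9.28, 10.28 and 10.03, and 9.99 and 9.95, with differences of 0.57 and 0.39 that did not pass.

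Across roles, the median log2 difference on ALA was 1.29 for the 4 contractile and filament genes, 1.03 for the 11 fibrillar genes and 0.64 for the 9 basement membrane genes. On SFA these medians were 1.45, 1.05 and 0.51. Within each class the genes spread widely: basement membrane differences ran from -0.12 to 2.21 on ALA and fibrillar ones from 0.05 to 2.25, so the classes overlapped. The array medians kept the same order on each of the 4 diet arrays. Relative to the Control mean, contractile medians were 1.25 and 1.33 on ALA and 1.44 and 1.46 on SFA. Fibrillar medians were 0.92 and 1.05 on ALA and 1.04 and 0.94 on SFA, and basement membrane medians 0.67 and 0.72 on ALA and 0.59 and 0.59 on SFA. Without Control replicate 2 the fibrillar median on ALA was 0.66, and the basement membrane medians were 0.43 on ALA and 0.35 on SFA. Without Control replicate 1 the basement membrane median on SFA was 0.77.

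**Figure D2:**
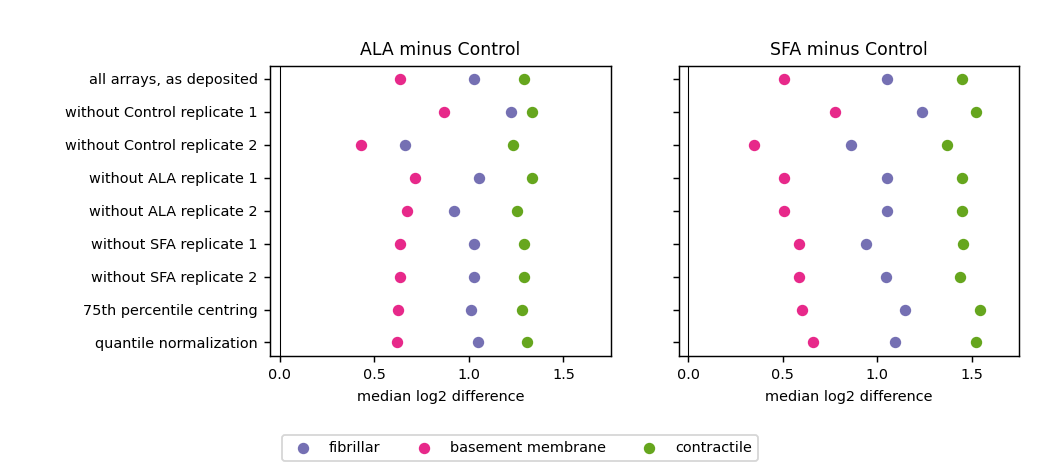
Median log2 difference (x axis) of the 11 fibrillar, 9 basement membrane and 4 contractile genes against Control, for ALA (left) and SFA (right), with all arrays, with 1 array left out, and after rescaling (y axis). The contractile median was the highest and the basement membrane median the lowest at each of the plotted settings, and leaving out Control replicate 2 moved the fibrillar median on ALA from 1.03 to 0.66.

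No gene of the 38 passed between ALA and SFA livers (limma), where 1.53% of all tested genes did (1.09% higher and 0.437% lower on ALA). At an unadjusted p below 0.05, 4 of the 38 differed, where 22.4% of all tested genes did. Tagln was lower on ALA by a log2 difference of -0.50 (95% interval -0.85 to -0.14, adjusted p = 0.125) and Acta2 by -0.49 (-0.94 to -0.04, adjusted p = 0.196). Col18a1 was higher on ALA by 0.42 (0.09 to 0.75, adjusted p = 0.146) and Timp3 by 0.41 (0.08 to 0.74, adjusted p = 0.152). The collagen IV genes had differences of 0.28 for Col4a1 (-0.02 to 0.59) and 0.36 for Col4a2 (-0.02 to 0.73). Intervals for the type I and III collagens were -0.48 to 0.61 for Col1a1, -0.32 to 0.51 for Col1a2 and -0.44 to 0.24 for Col3a1. For all 38 genes the interval lay within 1 unit of 0, which is no proof of equal expression. The class medians of ALA minus SFA were 0.06 (fibrillar), 0.18 (basement membrane) and -0.24 (contractile). Centring each array on its 75th percentile shifted the median of all tested genes in this comparison by -0.11 and turned the fibrillar median to -0.048.

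**Figure D3:**
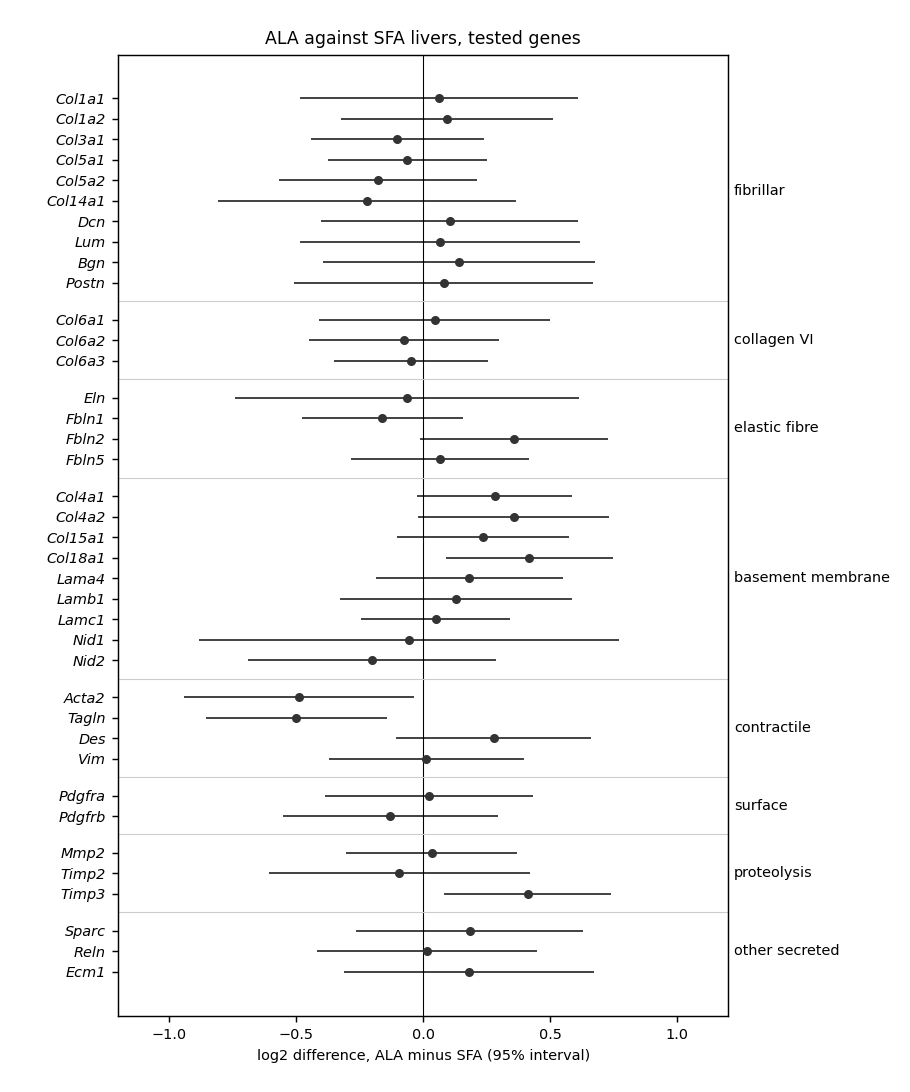
Log2 difference between ALA and SFA livers (x axis) for the 38 tested genes, grouped by role (y axis), with 95% intervals from limma. The intervals of Tagln, Acta2, Col18a1 and Timp3 leave out 0, and none of these genes passed after adjustment over all tested genes.

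Counts over other matrix lists are read against all tested genes, of which 5.11% rose on ALA and 6.62% on SFA, and 2.82% and 7.15% fell. Some listed genes passed the signal minimum although their Control mean was below it, and their number among the calls is given for each list, since a difference was built into their passing. Of 15 genes that process and crosslink collagen, 3 rose on ALA and 4 on SFA and 0 fell, with 1 such gene among the calls on each diet and medians over the 18 measured of 0.31 and 0.35. Pcolce, an enhancer of procollagen cleavage, rose by 0.84 and 1.15, and Serpinh1, the collagen chaperone, by 0.74 and 0.77. Of 7 other collagens tested limma called 0 on ALA, and on SFA it called 1, Col16a1, which fell by 0.59. At an unadjusted p below 0.05, 1 differed on ALA and 4 on SFA, where 24.7% and 31.9% of all tested genes did. Their medians over the 14 measured were -0.03 and -0.14, with 9 and 10 of the 14 below 0. Among 10 other basement membrane genes 2 rose on ALA and 4 on SFA, of which Lama2 on both diets and Npnt on SFA had a Control mean below the minimum. The laminin gene Lama2 rose by 1.07 on both diets, and Hspg2, which encodes perlecan, by 0.98 and 0.82. Npnt, which encodes nephronectin, was at 4.84 and 4.73 on Control, 5.08 and 5.30 on ALA, and 6.11 and 5.95 on SFA. It rose by 1.24 on SFA and was called lower on ALA than on SFA. Of 15 other interstitial and elastic matrix genes 4 rose on ALA and 5 on SFA and 0 fell, with 1 and 2 below the minimum on Control, Thbs1 among them. The thrombospondin genes Thbs1 and Thbs2 rose by 1.48 and 1.19 on ALA and by 2.44 and 1.12 on SFA.

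Of 10 further contractile genes tested, 5 rose on each diet, while 0 fell on ALA and 1 on SFA. Myl9 and Myh11, counted among the 5, were below the minimum on Control, which leaves 3 of 8. The myosin light chain gene Myl9 was at 4.97 and 4.76 on Control, 6.14 and 7.07 on ALA, and 7.12 and 7.34 on SFA, and rose by 1.74 and 2.36. The smooth muscle myosin gene Myh11 rose by 0.90 and 0.95, while the myosin light chain kinase gene Mylk fell by 0.56 on SFA and was called higher on ALA than on SFA. Of 15 genes of TGF-beta and PDGF signalling, 4 rose and 2 fell on ALA, and 2 rose and 2 fell on SFA. The ligand gene Tgfb1 was at 6.07 and 6.18 on Control, 7.37 and 7.12 on ALA, and 7.47 and 7.32 on SFA, and rose by 1.12 and 1.27. Ccn2, a matricellular target of that pathway, rose by 1.38 and 1.46. Eng and Tgfbr3 rose on ALA by 1.16 and 0.77, and their SFA differences of 0.75 and 0.35 did not pass. Ccn1, a relative of Ccn2, fell by 1.93 on ALA and had a difference of -1.34 on SFA (adjusted p = 0.0652), with Control arrays at 8.51 and 7.24. Pdgfc, a ligand of Pdgfra that was picked out after its values were seen, fell by 0.86 and 0.81. Smad7, the inhibitory Smad, fell by 1.12 on SFA and had a difference of -0.96 on ALA (adjusted p = 0.0631), with Control arrays at 7.73 and 6.91. Of 7 other proteases and inhibitors 1 rose, the membrane metalloprotease gene Mmp14, by 0.57 and 0.56. Of 14 matrix receptors 3 rose on ALA and 4 on SFA and 0 fell, among them the integrin genes Itgb3 (1.70 and 1.80) and Itga8 (1.13 and 1.16).

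Of 9 tested markers that define hepatic stellate cells, limma called 0 on ALA and 2 on SFA. Over all tested genes 5.11% rose on ALA and 6.62% on SFA, the background for each list of this paragraph. At an unadjusted p below 0.05, 5 and 3 of the 9 differed, where 24.7% and 31.9% of all tested genes did. At that threshold the SFA share is about that of all genes. The list had medians over the 11 measured of 0.51 and 0.20. Of the 11, 11 had a positive difference on ALA and 10 on SFA, where 48.29% and 44.76% of all tested genes did. Their mean log2 signal was 5.82 to 6.18 on Control, 6.45 to 6.46 on ALA and 6.32 to 6.41 on SFA. Lrat, the retinol esterase of vitamin A storage, was at 7.04 and 6.62, 7.48 and 7.37, and 7.63 and 7.44, and rose by 0.70 on SFA. Lhx2, a transcription factor of stellate cells, rose by 0.88 on SFA. Gfap stayed between 3.98 and 4.08 on all arrays and was below the signal minimum. Among portal fibroblast markers 2 of 5 tested rose on ALA and 3 on SFA (Dpt, below the minimum on Control, by 1.44 and 1.47). The SFA calls include Mfap4, which is counted in the interstitial and elastic matrix list too. Among vascular smooth muscle markers 3 of 5 rose on each diet (the pericyte gene Rgs5 by 1.72 and 1.81), with Myh11 counted here again. The mesothelial list had 2 of 8 genes above the minimum, of which 1 rose on each diet, Krt19 on ALA and Upk3b on SFA. Of 5 skeletal muscle markers limma called 0 on either diet, with 0 and 1 at an unadjusted p below 0.05.

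Markers of other cell populations differed in the same comparisons, where 5.11% of all tested genes rose on ALA and 6.62% on SFA. Endothelial markers rose in 10 of 15 on ALA and 11 of 15 on SFA (Lyve1, the hyaluronan receptor of sinusoids, by 2.67 and 1.94). Their mean log2 signal was 6.67 to 7.17 on Control, 7.96 to 8.04 on ALA and 7.70 to 7.73 on SFA. Macrophage and Kupffer cell markers rose in 12 of 12 and 9 of 12, with a mean signal of 7.24 to 7.41, 8.33 to 8.70 and 8.26 to 8.32. Cell cycle genes rose in 9 of 13 and 12 of 13, with a mean signal of 4.75 to 4.80, 5.80 to 6.97 and 7.11 to 7.24. Of these calls 8 on ALA and 9 on SFA were genes below the signal minimum on Control, which leaves 1 of 4 and 3 of 4. Fetal liver genes rose in 5 of 9 and 7 of 9 (2 and 3 of the calls below the minimum on Control), and genes of the postnatal liver fell in 4 of 12 and 5 of 12. Of 6 erythroid genes tested 3 rose on each diet, 1 of them below the minimum on Control, and 1 fell on SFA. Bile duct markers gave 1 call on ALA and 0 on SFA among 3 tested, and the call was Krt19, counted among the mesothelial markers too. Hepatocyte markers stayed close to level, with a mean of 12.00 to 12.11 on Control, 12.21 to 12.22 on ALA and 12.04 to 12.07 on SFA, and 1 of 10 called on ALA. The part of these populations, of sex and of maturity in the matrix gene differences was not tested.

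**Figure D4:**
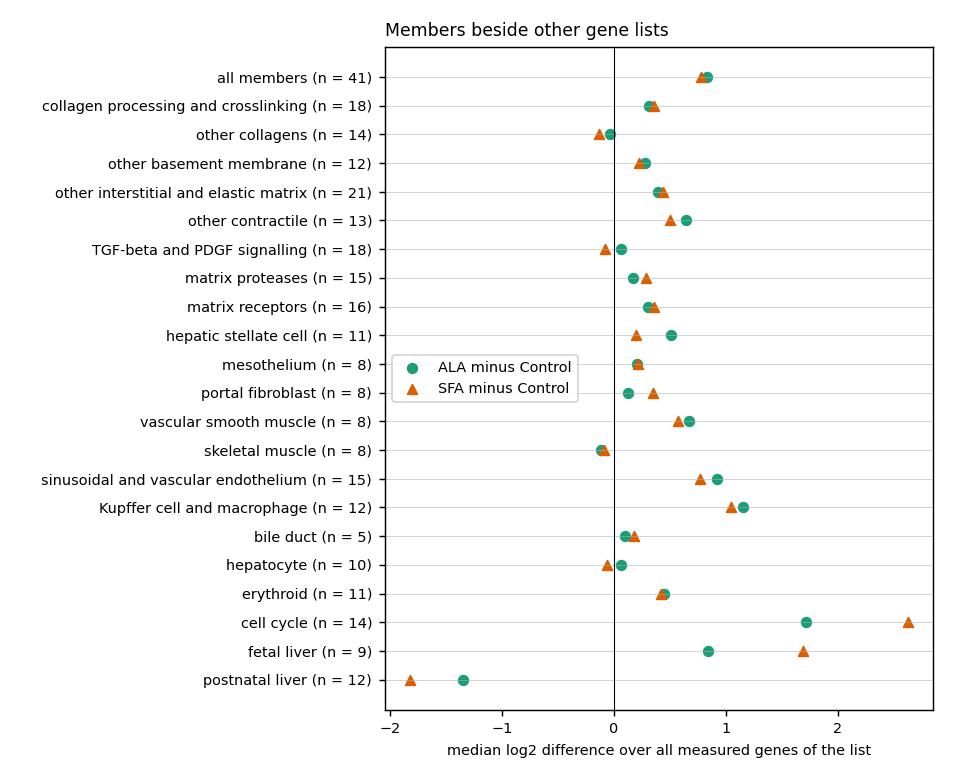
Median log2 difference against Control (x axis) over all measured genes of each list (y axis), for ALA (circles) and SFA (triangles). The 41 matrix and stellate cell genes lie at 0.83 and 0.78, below the cell cycle list and near the endothelial and macrophage lists, while the hepatocyte list lies near 0.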

How the data were processed

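Liver RNA of 6 pools was hybridised to 1-colour Affymetrix arrays. The authors deposited log2 signals, made with RMA in Partek 6.6 per the submitters' processing notes. The log base is not given in the sources used here, and the range of 1.98 to 13.12 fits base 2. Of 35556 probes, 21789 were annotated to 1 symbol, 1621 to several and 12146 to none. The brightest probe stood for each of 19938 genes.

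Genes with a mean log2 signal of at least 5 (10977) were tested with limma 3.58.1 in R 4.3.3, with a mean per diet and no covariate. P-values were two-sided and adjusted by Benjamini-Hochberg over all tested genes, with a threshold of 0.05. The procedure was tested on simulated data. Having 2 arrays per group limits the precision, and the Control arrays serve in both diet comparisons.

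All 42 genes were named, with array values for those called in any comparison. From other lists up to 3 called genes were named, except that all called genes of the TGF-beta and PDGF list were named. The genes, lists and tests were chosen with earlier results of these data known. Alternatives were the signal minimum, scaling, probe choice, the arrays fitted, a replicate block, a variance trend and leaving out each array.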

Additional observations from a re-analysis of the deposited data

How the results depend on the processing

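With 2 arrays per group, single arrays decided many calls. Over the fits that leave out 1 array, 9 to 19 of the matrix and stellate cell genes rose on ALA and 7 to 20 on SFA, and limma called 0 between ALA and SFA in each. Over all genes, those fits called 267 to 475 on ALA, 245 to 1428 on SFA and 0 to 36 between ALA and SFA. With only the compared groups in the fit, 448 genes were called on ALA and 11 between ALA and SFA. That fit kept 16 of the 22 matrix and stellate cell genes called on ALA and 20 of the 23 called on SFA. A signal minimum of 6 gave 19 of them on ALA (17 shared with the main fit) and 19 on SFA (18 shared). In place of 168 genes (120 higher, 48 lower) between ALA and SFA, no signal minimum gave 32, a minimum of 6 gave 293, a variance trend 308, 75th percentile centring 100 (42 higher, 58 lower) and quantile normalization 68 (34 and 34).

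Labels do not say that replicate numbers pair the pools, and same-numbered arrays did not deviate together (correlations of -0.03, -0.004 and 0.02 over 10977 genes). With the replicate number as a block, 22 of the matrix and stellate cell genes were called on ALA (21 shared with the fit without it), 24 on SFA (23 shared) and 0 between ALA and SFA. Over all genes the block left 0 between ALA and SFA.

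With 1 array left out, the fibrillar median ranged from 0.66 to 1.23 on ALA, 0.86 to 1.24 on SFA and -0.15 to 0.061 for ALA minus SFA. The basement membrane median ranged from 0.43 to 0.87, 0.35 to 0.77 and 0.090 to 0.23. The contractile median ranged from 1.23 to 1.33, 1.37 to 1.52 and -0.37 to -0.069. With 75th percentile centring the contractile median was 1.54 on SFA, and for ALA minus SFA the fibrillar, basement membrane and contractile medians were -0.048, 0.073 and -0.35. With quantile normalization the basement membrane and contractile medians on SFA were 0.66 and 1.52, and for ALA minus SFA the fibrillar and basement membrane medians were -0.065 and 0.0076.

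Signs turned for genes that did not pass in the comparison concerned when 1 array was left out. On ALA, Col5a2 ranged from -0.15 (without ALA replicate 2) to 0.25 and was at -0.0022 without Control replicate 1, and Col15a1 ranged from -0.28 to 0.034. On SFA, Fbln2 ranged from -0.079 to 0.29, Col18a1 from -0.28 to 0.011 and Lama4 from -0.029 to 0.34. For ALA minus SFA, Col5a2 ranged from -0.38 to 0.020, Col6a2 from -0.19 to 0.042, Pdgfrb from -0.27 to 0.013 and Pdgfra from -0.16 to 0.21. Pdgfra was also at -0.086 with 75th percentile centring and -0.14 with quantile normalization. The cause of these changes was not tested.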
